A study of Homo sapiens with 18 samples.

Results

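Semaphorins, ephrins, SLITs and netrins are the cues that steer growing axons, and neuropilins, plexins, Eph receptors, ROBOs and UNC5 proteins are the receptors that read them. All genes whose symbols belong to these families were taken by name, whatever their measured values, with earlier results of these data known. They were 67 of the 56629 gene symbols counted, 34 of them ligands and 33 receptors. Secreted class III semaphorins bind neuropilins, which signal through A plexins and plexin D1, while membrane-bound semaphorins bind plexins directly. Plexins silence small GTPases of the Ras family and so loosen adhesion and collapse the actin cytoskeleton. Ephrins and Eph receptor tyrosine kinases signal in both directions where cells touch, SLITs repel through ROBO receptors, and netrins attract through DCC or repel through UNC5 receptors. Melanocytes come from the neural crest, whose migration is guided by several of these cues, and in melanoma the same genes have been studied in migration, invasion and the supply of vessels.

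The values are RNA-seq read counts of polyadenylated RNA from cultured human melanoma cells, the SKmel147 line with NRASQ61R and the 501mel line with BRAFV600E, both from metastatic disease and grown in DMEM with FBS. The study targeted ARID2, a defining subunit of PBAF, a chromatin remodelling complex of the SWI/SNF family. In SKmel147 the ARID2 knockout (KO) lines, named KO1.4, KO1.5 and also KO3.20, and the control line NT carried stable Lenti-Cas9 and PLKO sgRNA constructs, and the control line Par carried none. In 501mel the KO lines KO1.8 and KO5.2 and the control line NTC carried the Lenti-CRISPR V2 vector for Cas9 and sgRNA, and Par carried none. Each line had 2 libraries, R1 and R2, which makes 10 libraries of SKmel147 and 8 of 501mel. The labels give no sgRNA sequence and do not say what NT and NTC stand for, whether a line is a clone or a pool, or whether R1 and R2 came from separate cultures. The p-values therefore measure the spread between libraries of a line, which may be technical, and every KO line is also 1 derived line with its own history.

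Total counts were 21266522 to 35670140 per SKmel147 library and 16749707 to 20606855 per 501mel library, and the 67 genes took 0.134% to 0.215% and 0.246% to 0.293% of them. Levels are CPM, counts relative to library size, scaled with TMM factors within each cell line. A gene with no count in a library can lie at up to 3 counts, which equals 0.0841 to 0.141 CPM in SKmel147 and 0.146 to 0.179 CPM in 501mel. ARID2 itself had 39.8 to 57.0 CPM in SKmel147 KO libraries and 62.3 to 72.8 CPM in SKmel147 control libraries. In 501mel it had 30.9 and 32.0 CPM in KO1.8, 19.8 and 21.0 CPM in KO5.2, and 40.9 to 43.2 CPM in the control libraries. ARID2 RNA was thus lowered but present in every KO line, and in KO1.4 its difference did not pass the test (log2 fold change -0.25, adjusted p = 0.228). All 9 melanocyte lineage markers were above 1 CPM in 501mel, with sums of 6905 to 9615 CPM in KO and 9245 to 9830 CPM in control libraries. SKmel147 KO libraries had 3 of the 9, MITF, SOX10 and PAX3, with sums of 181 to 250 CPM, and SKmel147 control libraries had 5, with sums of 176 to 278 CPM. The 5 Schwann cell markers summed to 1.87 to 3.42 CPM in SKmel147 KO and 0.848 to 5.61 CPM in SKmel147 control libraries, and to 288 to 460 CPM in 501mel KO and 258 to 280 CPM in 501mel control libraries. The 7 neuron markers summed to 71.6 to 103 CPM in SKmel147 KO and 82.7 to 138 CPM in SKmel147 control libraries, and to 174 to 188 CPM in 501mel KO and 130 to 136 CPM in 501mel control libraries, and the part of these markers in the results was not tested. The 6 fibroblast markers summed to 12.9 to 18.7 CPM in SKmel147 KO and 9.87 to 11.8 CPM in SKmel147 control libraries, and to 0.420 to 0.884 CPM in 501mel KO and 1.82 to 2.43 CPM in 501mel control libraries.

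The proximal promoters of 5 genes on which the results turn show how unlike their DNA is. Each runs from 250 bases before to 50 bases after the first start listed for the gene, 5′ to 3′ on the gene's strand. The sequences come from RefSeq on GRCh38.p14, a later build than the one the submitters name for the reads. Which start these cells use was not tested. Promoters of 57 of the 67 genes were matched. They were searched on both strands for TGANTCA (bound by AP-1), GGAATG (bound by TEAD factors), and the E-boxes CACGTG and CATGTG, which MITF can bind; capitals mark a match. PLXNA2 was called lower in the KO lines of both cell lines, although in 501mel the control line NTC lay with the KO lines. Its promoter is at chr1:208244335-208244634 on the minus strand with 70.3% G and C, 29 CpG and no match.
PLXNA2: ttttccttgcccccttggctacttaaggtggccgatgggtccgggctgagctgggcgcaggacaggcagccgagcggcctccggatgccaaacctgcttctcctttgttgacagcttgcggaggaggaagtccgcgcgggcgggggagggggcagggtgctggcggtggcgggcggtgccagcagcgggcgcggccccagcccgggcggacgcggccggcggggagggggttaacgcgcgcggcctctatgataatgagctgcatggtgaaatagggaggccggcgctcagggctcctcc
PLXNC1 and SEMA6D, which were abundant in 501mel and low in SKmel147, lie at chr12:94262369-94262668 and chr15:47183839-47184138, both on the plus strand. PLXNC1 has TGATTCA at position -91 from the start, and SEMA6D has CACGTG at position -28.
PLXNC1: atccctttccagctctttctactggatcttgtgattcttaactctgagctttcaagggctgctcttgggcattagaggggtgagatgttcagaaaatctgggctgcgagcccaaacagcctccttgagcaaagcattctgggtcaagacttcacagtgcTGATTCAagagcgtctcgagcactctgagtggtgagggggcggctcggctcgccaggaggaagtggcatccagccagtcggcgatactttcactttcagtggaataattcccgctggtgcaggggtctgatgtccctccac
SEMA6D: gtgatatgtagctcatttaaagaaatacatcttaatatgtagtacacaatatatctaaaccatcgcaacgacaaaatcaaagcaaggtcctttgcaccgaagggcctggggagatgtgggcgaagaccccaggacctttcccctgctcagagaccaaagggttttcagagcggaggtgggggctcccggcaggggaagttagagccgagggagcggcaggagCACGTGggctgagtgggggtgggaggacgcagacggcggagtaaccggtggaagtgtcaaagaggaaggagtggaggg
NRP2 and SEMA3C are a receptor and its secreted ligand, and their difference of KO minus controls between the 2 cell lines was called. With Par as the only control, that difference was not called for NRP2, nor was the SKmel147 rise of SEMA3C. NRP2 lies at chr2:205682251-205682550 on the plus strand and SEMA3C at chr7:80922340-80922639 on the minus strand. NRP2 has CATGTG on the opposite strand at position -47 with 33 CpG, and SEMA3C has no match, 36% G and C and 2 CpG.
NRP2: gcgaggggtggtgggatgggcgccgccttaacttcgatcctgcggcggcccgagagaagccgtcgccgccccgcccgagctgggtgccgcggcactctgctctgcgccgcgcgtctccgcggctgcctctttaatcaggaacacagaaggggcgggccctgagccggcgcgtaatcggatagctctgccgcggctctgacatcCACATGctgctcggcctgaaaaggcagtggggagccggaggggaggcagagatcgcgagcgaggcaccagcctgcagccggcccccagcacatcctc
SEMA3C: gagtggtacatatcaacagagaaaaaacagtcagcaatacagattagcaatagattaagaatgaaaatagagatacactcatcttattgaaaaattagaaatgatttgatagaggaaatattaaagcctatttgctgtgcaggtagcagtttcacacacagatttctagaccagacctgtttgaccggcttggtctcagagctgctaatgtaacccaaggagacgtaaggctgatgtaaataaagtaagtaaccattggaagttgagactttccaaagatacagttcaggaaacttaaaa
TGANTCA was found in 1 of the 57 promoters (1.75%) and in 7.76% of all 27305 promoters, and GGAATG in 5 (8.77%) and 14% of all. CACGTG was found in 4 (7.02%) against 7.43% of all, and CATGTG in 6 (10.5%) against 11.2% of all. These are letter matches in short windows and no measure of binding.

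The control lines of the 2 cell lines expressed different sets of these genes. Per kilobase of transcript, the scale on which genes can be compared, NRP1 led in SKmel147 with 51.5 CPM per kb, against 0.00208 CPM per kb in 501mel, where a single read was counted in 8 libraries. NRP1 is the neuropilin that binds SEMA3A and VEGF. NRP2, which binds SEMA3C and SEMA3F, was at 38.6 CPM per kb in SKmel147 and 51.8 CPM per kb in 501mel and led the 67 genes in 501mel. EPHA2, an Eph receptor often raised in invasive tumours, was at 33.8 CPM per kb in SKmel147 and 4.98 CPM per kb in 501mel, and EFNB2, a B ephrin known from arteries, was at 12.2 CPM per kb in SKmel147 and 0.276 CPM per kb in 501mel. SEMA7A, a lipid-anchored semaphorin, was at 25.6 CPM per kb in SKmel147 and 7.77 CPM per kb in 501mel, while its receptor PLXNC1 was at 0.343 CPM per kb in SKmel147 and 33.2 CPM per kb in 501mel. SEMA5A, a transmembrane semaphorin with thrombospondin repeats, was at 0.111 CPM per kb in SKmel147 and 45.9 CPM per kb in 501mel. SEMA4C, a ligand of plexin B2, was at 9.19 and 49.0 CPM per kb in SKmel147 and 501mel, and ROBO1 at 8.48 and 27.2 CPM per kb.

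In the joint edgeR quasi-likelihood fit of all 18 libraries, 55 of the 59 genes tested differed between SKmel147 and 501mel control lines at a Benjamini-Hochberg adjusted p under 0.05, where 80.7% of all 19518 genes differed. Of these, 22 were higher and 33 lower in SKmel147, beside 43.1% and 37.6% of all genes. A median log2 difference of -0.57 over the 59 genes stood beside 0.10 over all genes. Of the genes with the smallest p, SEMA5A differed by -8.86 ± 0.12 (SE), PLXNC1 by -6.53 ± 0.11, SEMA6D by -7.85 ± 0.17 and EFNB2 by 5.53 ± 0.12 on the log2 scale, SKmel147 minus 501mel. NRP1 is given by its levels only, since 501mel is at its floor. The genes that did not pass were EFNB1, SEMA3A, SEMA4A and SLIT3. ROBO4 had no read in any 501mel library, SLIT1 and EPHA10 none in any SKmel147 library, and SEMA5B none in all 18. The cell line, its driver mutation and any difference in library preparation cannot be told apart here. EPHA3, EPHA4, SEMA6A and NTN1 were further genes high in 501mel, at 14.4, 14.2, 21.0 and 4.93 CPM per kb, against 0.183, 1.60, 0.294 and 0.0249 CPM per kb in SKmel147. SEMA3B, EPHB1, NTN4 and SLIT2 showed the opposite, with 14.99, 8.80, 7.17 and 3.34 CPM per kb in SKmel147, against 0.419, 0.00313, 0.0232 and 0.0959 CPM per kb in 501mel.

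**Figure D1:**
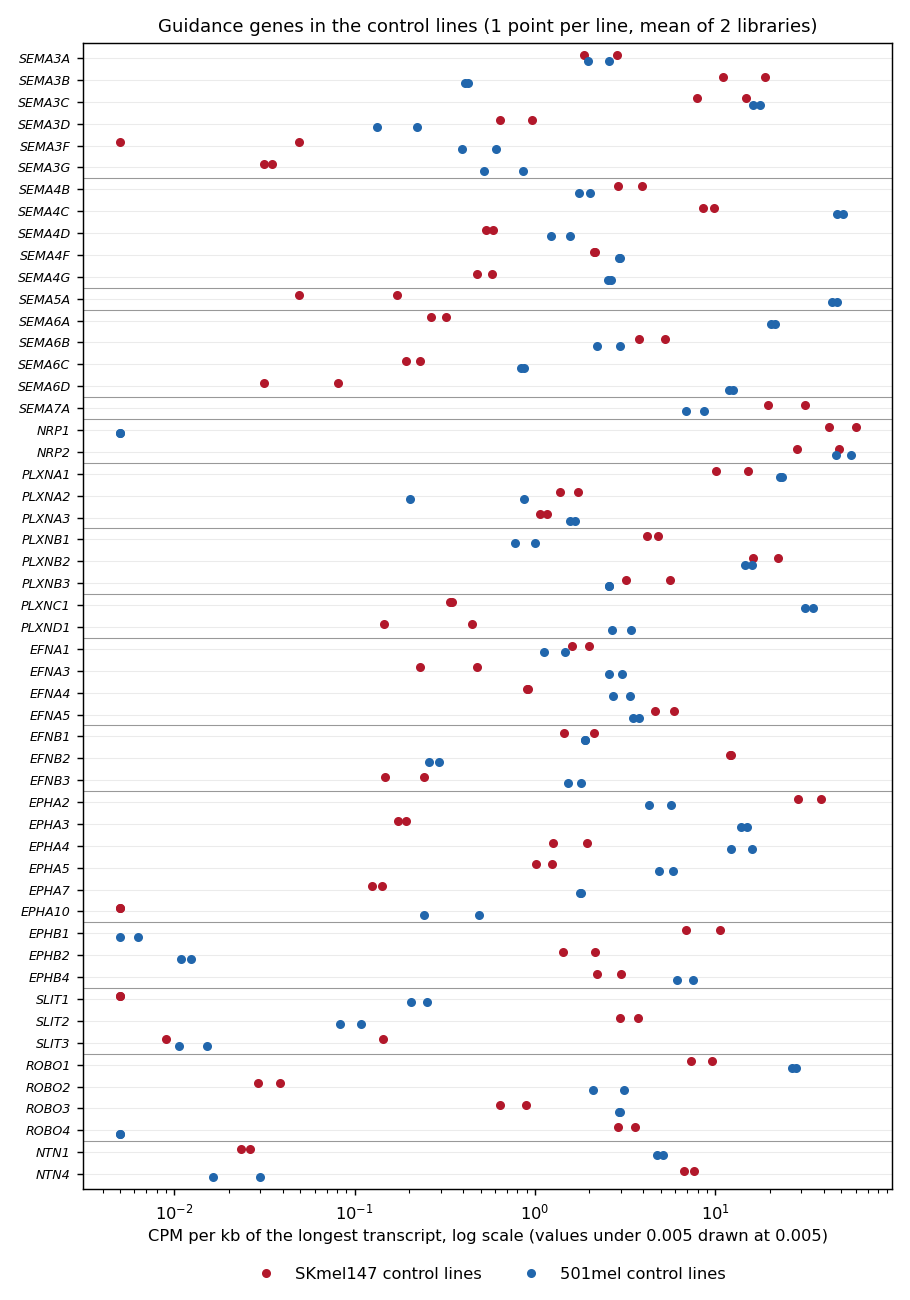
Levels of the guidance genes with at least 1 CPM in some control line, in CPM per kilobase of transcript on a log axis, 1 point per control line (SKmel147 NT and Par in red, 501mel NTC and Par in blue), with values under 0.005 drawn at 0.005. Red and blue points lie far apart for NRP1, PLXNC1, SEMA5A and SEMA6D and close together for SEMA3A.

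A moderate number of guidance genes changed with ARID2 KO in SKmel147. Of the 51 genes that passed the low-count filter, 20 changed between the 3 KO lines and the 2 control lines, where 17.7% of all 18361 genes changed. They were 7 higher and 13 lower, beside 8.07% and 9.60% of all genes. Secreted semaphorins 3A and 3C rose, and plexin A2, semaphorins 7A and 3D and ROBO4 fell, in each KO line separately. Those 6 genes stood beside 3.39% of all genes called with 1 sign in every KO line. KO and control libraries did not overlap for EFNB2 and SEMA3A, higher in KO, and for PLXNA2, PLXNC1, ROBO4, SEMA3D, SEMA4D and SEMA7A, lower in KO, beside 8.58% of all genes in either direction. The median log2 fold change over the 51 genes was 0.02, and over all genes it was -0.01. Taken as ligands and receptors, 11 of 26 tested ligands changed, 5 higher and 6 lower, and 9 of 25 tested receptors, 2 higher and 7 lower. Without KO1.5 the count of 20 was 13. With the line instead of the library as the replicate no gene passed, while 13 had an unadjusted p under 0.05 in that fit and DESeq2 on libraries called 19. The count of genes called in every KO line was 3 without KO1.4 R1, 3 without KO1.4 R2 and 1 without KO1.5 R1. A further 16 genes were too low to test, with no library above 0.475 CPM: EFNA2, EPHA1, EPHA8, EPHA10, EPHB3, EPHB6, NTN1, NTN3, SEMA3E, SEMA3F, SEMA3G, SEMA5B, SLIT1, UNC5A, UNC5B and UNC5D.

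**Figure D2:**
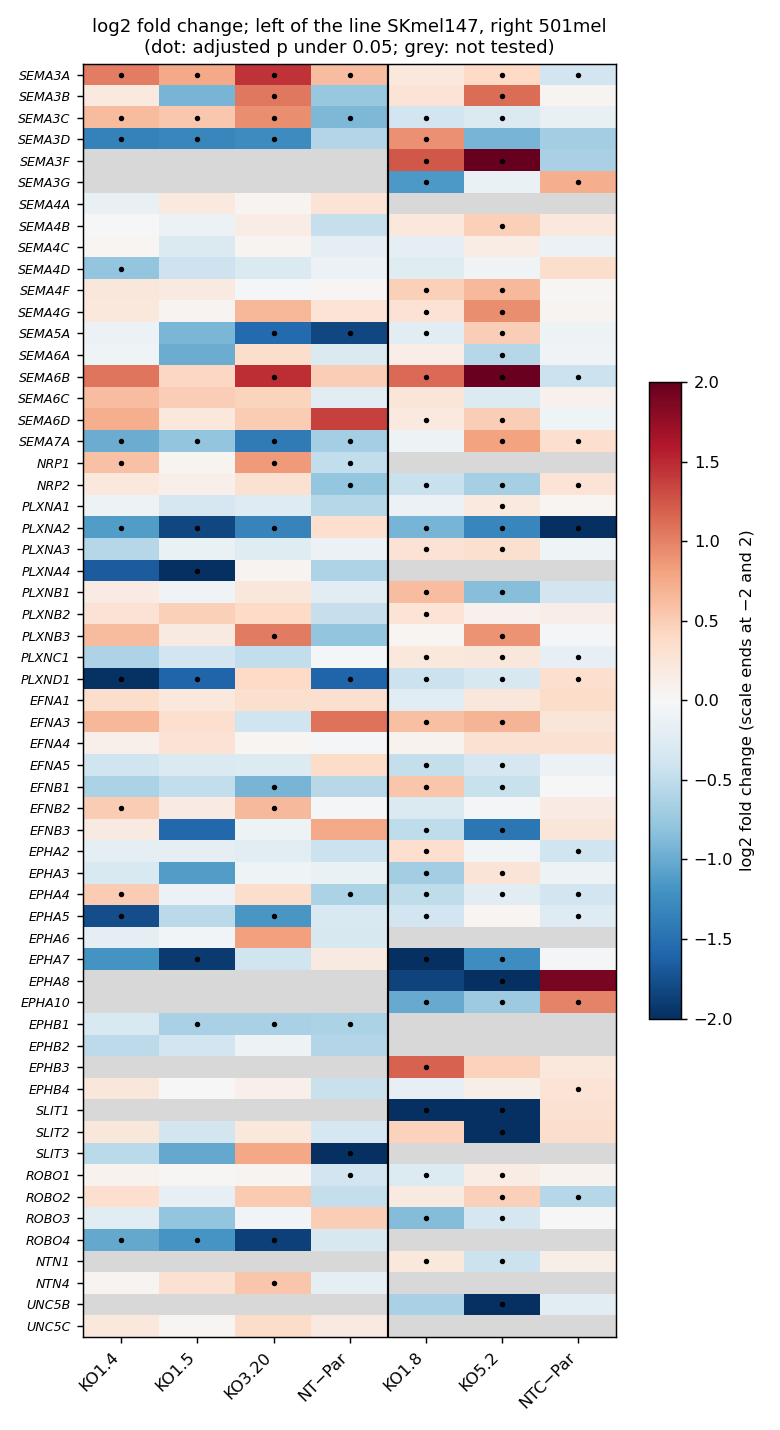
Log2 fold changes of the guidance genes by family in each KO line minus the mean of its controls and in the transduced control minus Par, for SKmel147 (KO1.4, KO1.5, KO3.20, NT minus Par) and 501mel (KO1.8, KO5.2, NTC minus Par); colour runs from -2 to 2, a dot marks an adjusted p under 0.05 and grey a gene not tested. The 501mel KO columns carry more dots (31 and 36) than the SKmel147 KO columns (12, 10 and 16).

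Among the secreted semaphorins of SKmel147, SEMA3A, which repels through NRP1 and A plexins, had 29.4, 38.6 and 53.5 CPM as the lowest, median and highest of 6 KO libraries. NT had 25.4 and 21.6 CPM and Par 12.7 and 18.2 CPM. All KO libraries lay above all controls, and the lines averaged 40.9 ± 10.1 CPM in KO (SD, n = 3) and 19.5 ± 5.70 CPM in controls (SD, n = 2). The log2 fold change was 1.08 ± 0.11 (SE), adjusted p = 6.29e-05, with 1.02, 0.76 and 1.45 in KO1.4, KO1.5 and KO3.20. NT itself was 0.61 above Par on the log2 scale (adjusted p = 0.0441). SEMA3C, which acts through NRP1, NRP2 and plexin D1 and guides neural crest cells of the heart, had 74.5, 88.1 and 110 CPM in KO libraries, 46.7 and 35.8 CPM in NT, and 76.4 and 77.0 CPM in Par. The KO libraries all lay above NT but reached down into the range of Par. Its log2 fold change was 0.70 ± 0.09 (adjusted p = 0.000311) against both controls and 0.25 (adjusted p = 0.142) against Par alone. SEMA3D, another secreted class III ligand, had 1.84, 2.01 and 2.14 CPM in KO libraries, 4.99 and 3.06 CPM in NT, and 8.11 and 3.92 CPM in Par. The KO libraries were tightly grouped below every control library, with a log2 fold change of -1.31 ± 0.21 (adjusted p = 0.00155). SEMA3B was tested and not called; its levels split the KO lines, as described with the KO lines below.

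Among the membrane-bound semaphorins of SKmel147, SEMA7A had 28.5, 42.0 and 54.5 CPM as the lowest, median and highest KO libraries, 61.8 and 71.6 CPM in NT, and 102 and 111 CPM in Par. No KO library reached a control library, and NT lay below Par. The lines averaged 41.0 ± 8.64 CPM in KO (SD, n = 3) and 86.5 ± 28.1 CPM in controls (SD, n = 2). The log2 fold change was -1.06 ± 0.09 (adjusted p = 1.87e-05), with -0.99, -0.79 and -1.41 in KO1.4, KO1.5 and KO3.20, and NT minus Par was -0.67 ± 0.15 (adjusted p = 0.0166). SEMA7A binds PLXNC1 and integrins. PLXNC1 had 1.31, 1.83 and 2.24 CPM in KO libraries, 2.48 in both NT libraries, and 2.41 and 2.71 CPM in Par, without overlap, and its log2 fold change of -0.50 ± 0.18 did not pass (adjusted p = 0.0878). SEMA6B, a transmembrane ligand of A plexins, had 21.1, 37.2 and 55.9 CPM in KO libraries, 17.2 and 24.8 CPM in NT, and 7.49 and 22.8 CPM in Par. The groups overlapped, the Par libraries lay far apart, and the log2 fold change was 0.99 ± 0.24 (adjusted p = 0.0163). SEMA6B transcripts have 67.7% G and C, and between R1 and R2 of 1 line the correlation of log2 ratios with GC content across genes ran between -0.53 and 0.66 in SKmel147. SEMA4D, which binds plexin B1, fell by 0.50 on the log2 scale (SE 0.16, adjusted p = 0.0466), with 1.60 to 2.49 CPM in KO and 2.95 to 3.74 CPM in control libraries. SEMA5A was called lower at levels of 0.336 to 1.07 CPM in KO and 0.540 to 2.55 CPM in control libraries.

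Among the receptors of SKmel147, PLXNA2, which with neuropilins or alone receives SEMA3 and SEMA6 ligands, had 4.62, 7.05 and 8.64 CPM as the lowest, median and highest KO libraries. It had 17.6 and 22.3 CPM in NT and 18.04 and 13.6 CPM in Par. All 6 KO libraries lay below all 4 control libraries, and the lines averaged 6.76 ± 1.59 CPM in KO (SD, n = 3) and 17.9 ± 2.92 CPM in controls (SD, n = 2). The log2 fold change was -1.42 ± 0.12 (adjusted p = 1.24e-05), the smallest p of the 51 genes, with -1.12, -1.82 and -1.33 in KO1.4, KO1.5 and KO3.20 and 0.33 for NT minus Par (adjusted p = 0.269). ROBO4, a ROBO protein known from endothelial cells, had 3.45, 6.61 and 7.84 CPM in KO libraries, 10.9 and 16.5 CPM in NT, and 17.96 and 16.0 CPM in Par, without overlap. Its log2 fold change was -1.36 ± 0.14 (adjusted p = 7.24e-05). The 9 endothelial markers summed to 2.40 to 3.78 CPM in KO and 2.82 to 14.5 CPM in control libraries, CDH5 was at 0 in the control libraries, and TIE1 had 12.8 and 9.03 CPM in Par and at most 1.09 CPM in the other SKmel147 libraries. NRP1 had 299, 446 and 539 CPM in KO libraries, 258 and 246 CPM in NT, and 334 and 373 CPM in Par. Its log2 fold change of 0.49 ± 0.06 (adjusted p = 0.000349) was 0.25 against Par alone (adjusted p = 0.0515), and KO1.5 did not share it (0.05, adjusted p = 0.764). NRP2 had 264, 288 and 312 CPM in KO libraries, 196 and 184 CPM in NT, and 295 and 353 CPM in Par, and did not pass (0.20 ± 0.07, adjusted p = 0.0672).

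**Figure D3:**
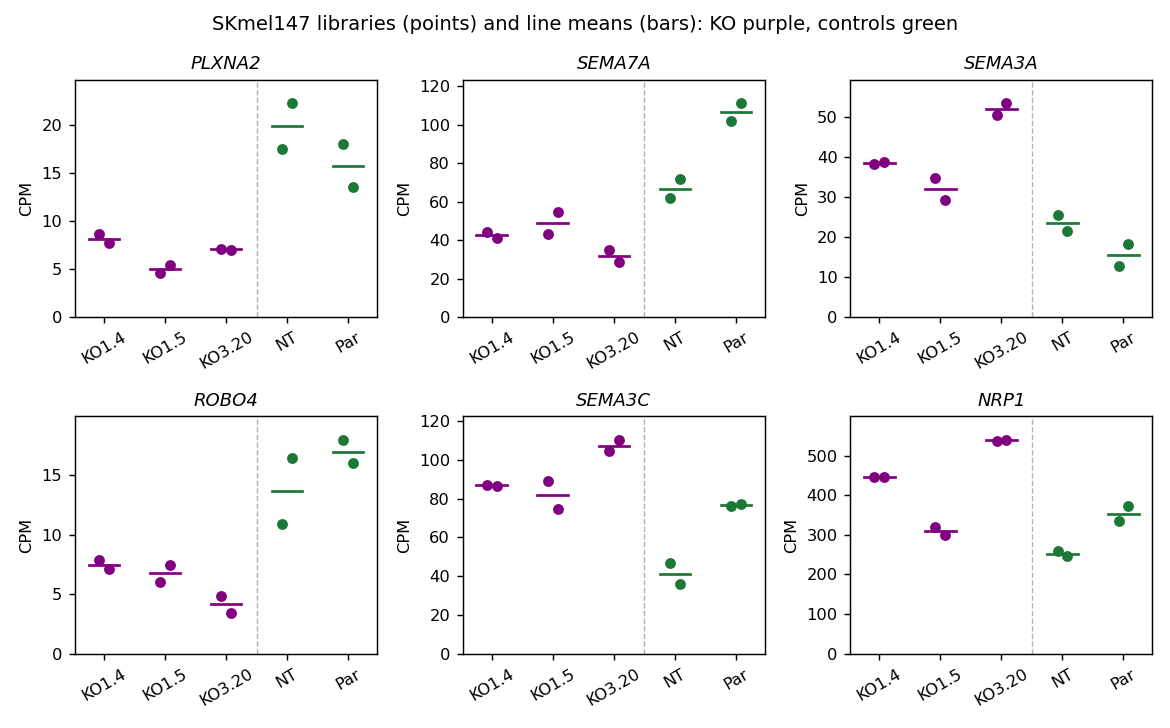
CPM of PLXNA2, SEMA7A, SEMA3A, ROBO4, SEMA3C and NRP1 in the SKmel147 libraries, 1 point per library, the KO1.4, KO1.5 and KO3.20 lines left of NT and Par. KO libraries of PLXNA2, SEMA7A and ROBO4 lie below and of SEMA3A above every control library, while SEMA3C and NRP1 overlap with Par.

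In the Eph and ephrin families of SKmel147, EPHA5, a receptor of A ephrins found mainly in neurons, had 2.74, 4.24 and 7.10 CPM as the lowest, median and highest KO libraries. It had 11 and 6.02 CPM in NT and 11.3 and 9.68 CPM in Par. A single NT library fell into the KO range, and the log2 fold change was -1.16 ± 0.17 (adjusted p = 0.00069). EPHB1, a receptor of B ephrins, had 23.4, 26.9 and 33.1 CPM in KO libraries, 33.8 and 30.9 CPM in NT, and 51.1 and 48.7 CPM in Par. The KO libraries lay near NT and well below Par, so that the log2 fold change of -0.54 ± 0.08 (adjusted p = 0.000735) was -0.22 (adjusted p = 0.191) against NT alone. EFNB2, a ligand of EphB receptors and EPHA4, had 67.0, 86.0 and 97.0 CPM in KO libraries, 62.9 and 57.6 CPM in NT, and 56.4 and 66.3 CPM in Par. The lowest KO library was just above the highest control, and the log2 fold change was 0.44 ± 0.08 (adjusted p = 0.00214). EFNB1 fell by 0.69 on the log2 scale (SE 0.13, adjusted p = 0.00359), with 3.02 to 4.62 CPM in KO and 4.48 to 7.66 CPM in control libraries. EPHA7, at 0.178 to 0.795 CPM in KO and 0.756 to 1.12 CPM in control libraries, was also called lower. The other called genes were EFNA5, PLXNA4 and PLXND1, all lower, and NTN4 and PLXNB2, both higher. None of them was called with 1 sign in every KO line. In KO3.20, PLXND1 averaged 2.39 CPM, between NT (1.03 CPM) and Par (3.18 CPM), and PLXNA4 averaged 0.6745 CPM, between NT (0.523 CPM) and Par (0.825 CPM). NTN4 averaged 26.96 CPM in KO1.4, below Par with 27.56 CPM. The 31 genes tested and not called had log2 fold changes of -0.50 to 0.61: EFNA1, EFNA3, EFNA4, EFNB3, EPHA2, EPHA3, EPHA4, EPHA6, EPHB2, EPHB4, NRP2, PLXNA1, PLXNA3, PLXNB1, PLXNB3, PLXNC1, ROBO1, ROBO2, ROBO3, SEMA3B, SEMA4A, SEMA4B, SEMA4C, SEMA4F, SEMA4G, SEMA6A, SEMA6C, SEMA6D, SLIT2, SLIT3 and UNC5C.

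In 501mel, ARID2 KO came with changes in most of the guidance genes that could be tested, as it did over the genome. Of 49 genes tested, 35 changed, where 51.3% of all 16230 genes changed. They were 17 higher and 18 lower, beside 24.7% and 26.5% of all genes. Secreted SEMA3F and membrane-bound SEMA6B, SEMA4F, SEMA4G and SEMA6D rose, while SLIT1 and NRP2 fell. Over both KO lines 6 of 7 tested EphA receptors were called lower, where 26.5% of all genes were, but of them EPHA4, EPHA7 and EPHA10 were called lower in each KO line, EPHA3 and EPHA5 only in KO1.8, EPHA8 only in KO5.2, and EPHA3 was called higher in KO5.2. Ligands changed in 18 of 27 cases, 11 higher and 7 lower, and receptors in 17 of 22, 6 higher and 11 lower. In KO1.8 and KO5.2 separately, 19 genes were called with 1 sign in both, where 24.0% of all genes were. EFNA3, PLXNA3, PLXNC1, SEMA3F, SEMA4F, SEMA4G, SEMA6B and SEMA6D were higher in both, and EFNA5, EFNB3, EPHA4, EPHA7, EPHA10, NRP2, PLXNA2, PLXND1, ROBO3, SEMA3C and SLIT1 lower in both. KO and control libraries did not overlap for the same higher genes other than PLXNA3, and for EFNA5, EFNB3, EPHA4, EPHA7, NRP2, ROBO3, SEMA3C, SLIT1 and UNC5B, lower in KO, beside 27.1% of all genes in either direction. The median log2 fold change over the 49 genes was -0.01, as it was over all genes. With the line as the replicate no gene passed, while 11 had an unadjusted p under 0.05, and DESeq2 on libraries called 30. Against Par alone, 12 genes were called in both KO lines. Too low to test were 18 genes, with no library above 0.526 CPM: EFNA2, EPHA1, EPHA6, EPHB1, EPHB2, EPHB6, NRP1, NTN3, NTN4, PLXNA4, ROBO4, SEMA3E, SEMA4A, SEMA5B, SLIT3, UNC5A, UNC5C and UNC5D.

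Among the secreted cues of 501mel, SEMA3F, which repels through NRP2 and restrains tumour vessels, had 4.01 and 4.74 CPM in KO1.8 and 10.6 and 10.3 CPM in KO5.2. It had 1.72 and 1.27 CPM in NTC and 2.22 and 2.42 CPM in Par. Every KO library lay above every control, with KO5.2 above KO1.8, and the log2 fold change was 1.86 ± 0.14 (adjusted p = 5.34e-08). SEMA3C had 64.5 and 69.2 CPM in KO1.8, 70.2 and 73.2 CPM in KO5.2, 85.2 and 81.5 CPM in NTC, and 95.6 and 88.6 CPM in Par. It was lower without overlap, by a log2 fold change of -0.34 ± 0.04 (adjusted p = 2.07e-05). SLIT1, a ligand of ROBO1 and ROBO2, had 0.416 and 0.435 CPM in KO1.8, 0.105 and 0.151 CPM in KO5.2, 1.78 and 2.21 CPM in NTC, and 1.35 and 1.89 CPM in Par. KO5.2 was at or near the floor of 3 counts, and the log2 fold change over both KO lines was -2.90 ± 0.29 (adjusted p = 1.47e-06). SEMA3A rose by 0.30 ± 0.06 (adjusted p = 0.0011), but Par, with 22.01 and 20.5 CPM, lay in or just below the range of the KO libraries, 21.0 to 25.04 CPM. SLIT2 was called lower over both KO lines at levels under 1 CPM in every library: it had 0.936 and 0.725 CPM in KO1.8, 0 and 0.1005 CPM in KO5.2, 0.952 and 0.441 CPM in NTC, and 0.527 and 0.532 CPM in Par. KO1.8 averaged above both control lines, so the call rests on KO5.2.

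Among the membrane-bound semaphorins of 501mel, SEMA6B had 21.96 and 22.2 CPM in KO1.8 and 40.2 and 39.4 CPM in KO5.2. It had 9.46 and 8.04 CPM in NTC and 11.6 and 11.95 CPM in Par. KO libraries lay above controls throughout, KO5.2 highest, with a log2 fold change of 1.55 ± 0.07 (adjusted p = 1.91e-10), the smallest p of the 49 genes. SEMA4F, a transmembrane semaphorin, had 23.9 and 25.4 CPM in KO1.8, 29.6 and 26.2 CPM in KO5.2, 18.3 and 17.5 CPM in NTC, and 16.7 and 18.5 CPM in Par. SEMA4G, of the same class, had 15.5 and 14.1 CPM in KO1.8, 23.0 and 22.9 CPM in KO5.2, 13.3 and 11.4 CPM in NTC, and 12.1 and 11.5 CPM in Par. SEMA4F and SEMA4G were higher in KO without overlap, by 0.56 ± 0.06 (adjusted p = 5.28e-06) and 0.61 ± 0.07 (adjusted p = 7.8e-06). SEMA6D, a ligand of plexin A1, had 88.3 and 83.04 CPM in KO1.8, 103 and 107 CPM in KO5.2, 73.6 and 71.2 CPM in NTC, and 78.6 and 75.2 CPM in Par, and its log2 fold change was 0.35 ± 0.04 (adjusted p = 8.67e-06). SEMA7A had 25.1 and 23.5 CPM in KO1.8, 47.4 and 43.8 CPM in KO5.2, 31.3 and 27.3 CPM in NTC, and 22.3 and 24.0 CPM in Par. Its call of 0.36 ± 0.06 (adjusted p = 0.000212) came with a rise in KO5.2 (0.81) and a log2 fold change of -0.10 in KO1.8 that did not pass (adjusted p = 0.343). SEMA4F, SEMA4G, SEMA6B and SEMA6D were called in each KO line, and the other membrane-bound semaphorins called were SEMA4B and SEMA5A, higher, and SEMA6A, lower. SEMA6A averaged 157.5 CPM in KO1.8, above NTC (140.5 CPM) and Par (147.6 CPM), and 97.4 CPM in KO5.2, so its call rests on KO5.2. SEMA5A averaged 465.8 CPM in KO1.8, below NTC (520.7 CPM) and Par (559.4 CPM), and 755.7 CPM in KO5.2, so its rise rests on KO5.2 too.

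Among the receptors of 501mel, NRP2 had 256 and 250 CPM in KO1.8 and 217 and 215 CPM in KO5.2. It had 401 and 355 CPM in NTC and 332 and 293 CPM in Par. The KO libraries lay below all controls, the log2 fold change was -0.56 ± 0.05 (adjusted p = 3.16e-07), and no other neuropilin was expressed above the floor. EPHA7, an Eph receptor with roles in cortical wiring, had 1.405 and 1.26 CPM in KO1.8, 4.83 and 5.13 CPM in KO5.2, 11.3 and 12.2 CPM in NTC, and 12.2 and 11.5 CPM in Par. It was lower in both KO lines, more in KO1.8 (-3.15) than in KO5.2 (-1.25), with -2.20 ± 0.10 over both (adjusted p = 6.1e-10). EPHA4, which binds ephrins of both classes, had 63.6 and 61.7 CPM in KO1.8, 76.0 and 76.3 CPM in KO5.2, 78.5 and 77.5 CPM in NTC, and 117 and 86.6 CPM in Par. KO5.2 lay just under NTC, and the log2 fold change of -0.37 ± 0.07 (adjusted p = 0.000553) was -0.18 (adjusted p = 0.110) against NTC alone. EPHA10, an Eph receptor without kinase activity, had 0.832 to 1.16 CPM in KO libraries, 2.86 and 2.45 CPM in NTC, and 1.70 and 0.946 CPM in Par. Its call (-0.87 ± 0.22) was lost against Par alone (adjusted p = 0.346) and without Par R1 (adjusted p = 0.0628). EPHA3, EPHA5 and EPHA8 were the other EphA receptors called lower. EPHA8 had at most 0.0967 CPM in KO and 0.595 CPM in control libraries, and 0 in Par R2. PLXNC1, a receptor of SEMA7A, had 283 and 280.5 CPM in KO1.8, 286 and 287 CPM in KO5.2, 234 and 228 CPM in NTC, and 263 and 253 CPM in Par. Its small rise of 0.22 ± 0.04 (adjusted p = 0.000123) left no overlap, although NTC itself was called below Par. PLXNA3 rose by 0.31 ± 0.09 (adjusted p = 0.0613 against Par alone), ROBO3 fell by 0.60 on the log2 scale (SE 0.11), and PLXND1 fell by 0.37 (SE 0.08, adjusted p = 0.111 against Par alone).

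PLXNA2 was called lower in both KO lines of 501mel too, but there the control line NTC lay with the KO lines. It had 2.08 and 2.95 CPM in KO1.8, 1.58 and 2.31 CPM in KO5.2, 2.56 and 2.11 CPM in NTC, and 11.4 and 8.57 CPM in Par. Only Par stood apart. The log2 fold change was -1.11 ± 0.18 (adjusted p = 0.000121) against both controls and -0.06 (adjusted p = 0.856) against NTC alone, and NTC minus Par was -2.10 ± 0.22 (adjusted p = 1.69e-05). Among the ephrins of 501mel, EFNA3 rose by 0.64 ± 0.10, with 7.20 to 8.62 CPM in KO and 4.45 to 5.77 CPM in control libraries. EFNB3, a ligand of EphB receptors, had 3.75 and 3.67 CPM in KO1.8, 2.05 and 1.86 CPM in KO5.2, 6.54 and 5.05 CPM in NTC, and 4.92 and 4.85 CPM in Par, with a log2 fold change of -0.98 ± 0.13 (adjusted p = 2.71e-05). EFNA5 fell by 0.41 (SE 0.06), with 13.4 to 15.4 CPM in KO and 18.6 to 20.8 CPM in control libraries. The remaining called genes were EPHB3, PLXNB2, PLXNB3, ROBO2 and SEMA3B, higher, and SEMA3G and UNC5B, lower. None of them was called with 1 sign in both KO lines. SEMA3G averaged 3.01 CPM in KO5.2, above Par with 2.56 CPM, and ROBO2 averaged 27.8 CPM in KO1.8, below Par with 29.8 CPM. PLXNB3 averaged 16.7 CPM in KO1.8, close to NTC with 16.3 CPM and Par with 16.4 CPM. UNC5B was near the floor, with 0.0503 to 0.290 CPM in KO and 0.294 to 0.5855 CPM in control libraries. Tested and not called were 14 genes with log2 fold changes of -0.16 to 0.18: EFNA1, EFNA4, EFNB1, EFNB2, EPHA2, EPHB4, NTN1, PLXNA1, PLXNB1, ROBO1, SEMA3D, SEMA4C, SEMA4D and SEMA6C. These are averages over both KO lines, which for some genes lay on opposite sides of the control lines. In KO1.8, KO5.2, NTC and Par, EFNB1 averaged 9.195, 4.605, 6.254 and 6.266 CPM and NTN1 34.0, 21.7, 30.6 and 28.1 CPM. In the same order ROBO1 averaged 168.8, 226.1, 209.5 and 198.8 CPM and SEMA3D 2.05, 0.569, 0.832 and 1.38 CPM. In 501mel the median log2 fold change of genes on chromosome 15, which carries SEMA6D, SEMA7A and SEMA4B, was 0.22, that of chromosome 19, which carries SEMA6B, was 0.17, and that of chromosome 6, which carries EPHA7, was 0.18; their part in the results was not tested.

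**Figure D4:**
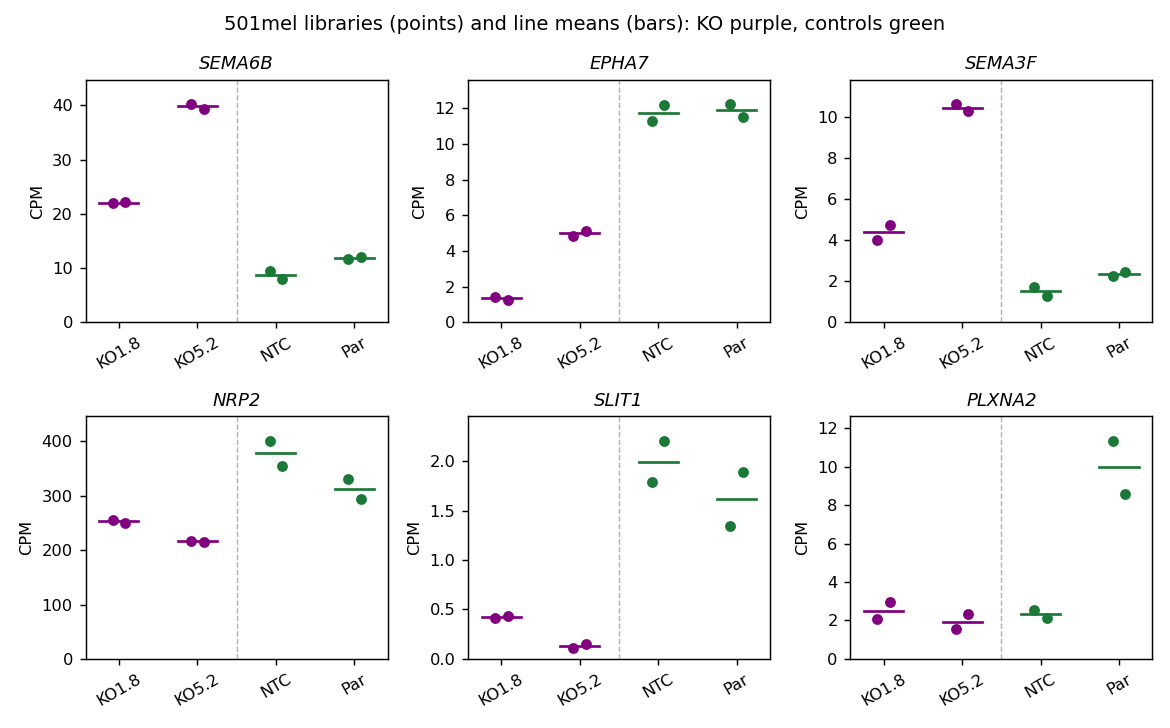
CPM of SEMA6B, EPHA7, SEMA3F, NRP2, SLIT1 and PLXNA2 in the 501mel libraries, 1 point per library, KO1.8 and KO5.2 left of NTC and Par. The first 5 separate KO from control libraries, with KO1.8 and KO5.2 at different levels, whereas NTC lies with the KO lines for PLXNA2.

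The control lines differed from each other in part of the same genes, although neither was meant to lack ARID2. In SKmel147, 11 of 51 genes differed between NT and Par, 1 higher and 10 lower in NT, where 9.27% of all genes differed, 3.82% higher and 5.45% lower. Without NT R1 the count was 3. A median of -0.30 over the 51 genes stood beside 0.00 over all genes, and NT minus Par followed GC content across genes (Spearman's rho = -0.405, a description across genes that are not independent). NRP2 (-0.77 ± 0.11, adjusted p = 0.00202), SEMA3C (-0.90 ± 0.14, adjusted p = 0.00341) and PLXND1 (-1.61) had the smallest p. PLXND1, a receptor of SEMA3E and SEMA3C, had 0.378, 0.589 and 2.79 CPM in KO libraries, 1.05 and 1.01 CPM in NT, and 2.52 and 3.83 CPM in Par. Its difference between NT and Par was lost without Par R2 (adjusted p = 0.0547) or without NT R1 (adjusted p = 0.0663). In 501mel, 14 of 49 genes differed between NTC and Par, 6 higher and 8 lower in NTC, where 15.7% of all genes did, 6.77% higher and 8.93% lower. The count was 3 without NTC R1, 7 without NTC R2, and 9 without either Par library. After PLXNA2, ROBO2 and EPHA2 had the smallest p. ROBO2, a SLIT receptor, had 20.9 and 19.5 CPM in NTC and 30.8 and 28.8 CPM in Par (-0.57 ± 0.09, adjusted p = 0.000732). EPHA2 had 16.6 and 17.5 CPM in NTC and 22.9 and 22 CPM in Par (-0.39 ± 0.09, adjusted p = 0.00603, and 0.0611 without NTC R1).

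KO lines of 1 cell line also differed from each other. In SKmel147 a test of equality of the 3 KO lines called 4 of 51 genes, where 5.46% of all genes were called. DESeq2 called 10, and the count was 12 without the low-count filter, 14 with a GC and length correction and 15 with that correction and a replicate block. The 4 were NRP1 (adjusted p = 0.00184), PLXND1 (adjusted p = 0.00224), SEMA3B (adjusted p = 0.0118) and PLXNA4 (adjusted p = 0.0462). The count was 8 without Par R1, 9 without Par R2, 2 without KO1.5 R1 and 2 without KO3.20 R1. SEMA3B, a secreted semaphorin with tumour suppressor roles in lung, had 59.6 and 49.0 CPM in KO1.4, 22.9 and 26.9 CPM in KO1.5, 104 and 92.1 CPM in KO3.20, 27.3 and 45.5 CPM in NT, and 37.1 and 86.9 CPM in Par. KO1.5 was lowest and KO3.20 highest, the 2 Par libraries spanned most of that range, and the call was lost without either KO1.5 library (adjusted p = 0.0909 and 0.0654) and without KO3.20 R1 (adjusted p = 0.0646). Single KO lines against both controls gave 12 called genes in KO1.4 (8.77% of all genes), 10 in KO1.5 (11.2%) and 16 in KO3.20 (12.6%). In 501mel, KO5.2 minus KO1.8 gave 30 of 49 genes, 19 higher and 11 lower in KO5.2, where 41.3% of all genes differed, 20.6% higher and 20.7% lower. EPHA3, a receptor of A ephrins, had 97.1 and 103 CPM in KO5.2 and 49.4 and 53.4 CPM in KO1.8 (0.96 ± 0.06, adjusted p = 4.18e-08), with controls of 79.5 to 87.9 CPM between them. SEMA5A had 762 and 749 CPM in KO5.2 and 476 and 455 CPM in KO1.8 (0.70 ± 0.06), with controls of 502 to 594 CPM, and SEMA7A differed by 0.91 ± 0.08. For EPHA3 and SEMA5A the 2 KO lines thus lay on opposite sides of the controls, and each was called in both KO lines with opposite signs. PLXNB1, a receptor of SEMA4D, had 4.20 and 2.92 CPM in KO5.2 and 10.8 and 8.75 CPM in KO1.8, with controls of 4.71 to 7.27 CPM. Against both controls, KO1.8 gave 31 called genes (40.2% of all genes) and KO5.2 gave 36 (53.5%).

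Set side by side, the 2 cell lines shared some changes and opposed others. Of 41 genes tested in both, 8 changed with the same sign (EFNA5, EPHA5, EPHA7, PLXNA2, PLXNB2, PLXND1, SEMA3A and SEMA6B), where 7.32% of all genes did. PLXND1 in SKmel147 averaged 2.39 CPM in KO3.20, between NT with 1.03 CPM and Par with 3.18 CPM. SEMA3C, SEMA5A and SEMA7A changed with opposite signs, where 3.86% of all genes did. In 501mel SEMA5A was called lower in KO1.8 and higher in KO5.2. In SKmel147 it averaged 0.576 CPM in NT, within the KO line means of 0.367 to 1.005 CPM, and 2.03 CPM in Par. The rise of SEMA3C in SKmel147 was 0.25 against Par alone (edgeR adjusted p = 0.142). The difference of the KO effect itself, SKmel147 minus 501mel, was called for 15 of 59 genes, 6 higher and 9 lower, where 21.3% of all genes were called, 11.3% higher and 9.99% lower. With the line as the replicate no gene passed, while 8 had an unadjusted p under 0.05, and DESeq2 on libraries called 18. SEMA7A fell in SKmel147 and was called higher over the 501mel KO lines, where KO5.2 rose and KO1.8 did not pass (-0.10, adjusted p = 0.343), with a difference of -1.41 ± 0.12 (adjusted p = 3.81e-07). SEMA3C did the reverse, with a difference of 1.05 ± 0.11 (adjusted p = 3.17e-06). For NRP2 the difference was 0.77 ± 0.09 (adjusted p = 8.86e-06), and 0.24 (adjusted p = 0.142) with Par as the only control. For SEMA3A it was 0.78 ± 0.14 (adjusted p = 0.000733), and 0.28 (adjusted p = 0.315) with the transduced lines as the only controls. EPHA5 was called lower over the KO lines of both cell lines, but in 501mel only KO1.8 was called lower by itself. Its log2 fold change was lower by 0.98 in SKmel147 (SE 0.19, adjusted p = 0.00119). In 501mel it had 33.2 and 35.3 CPM in KO1.8 and 44.7 and 47.2 CPM in KO5.2. The 501mel controls had 39.6 and 42.4 CPM in NTC and 51.2 and 46.8 CPM in Par. PLXNA2 did not pass this test (-0.30 ± 0.23, adjusted p = 0.412), and the 95% interval of its difference runs from -0.75 to 0.14. Its log2 fold change in 501mel was -0.06 against NTC alone (edgeR adjusted p = 0.856), so that its call there rests on Par. EPHA7 fell further in 501mel (difference 1.03 ± 0.27, adjusted p = 0.0105), while SKmel147 control libraries had at most 1.12 CPM of it.

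**Figure D5:**
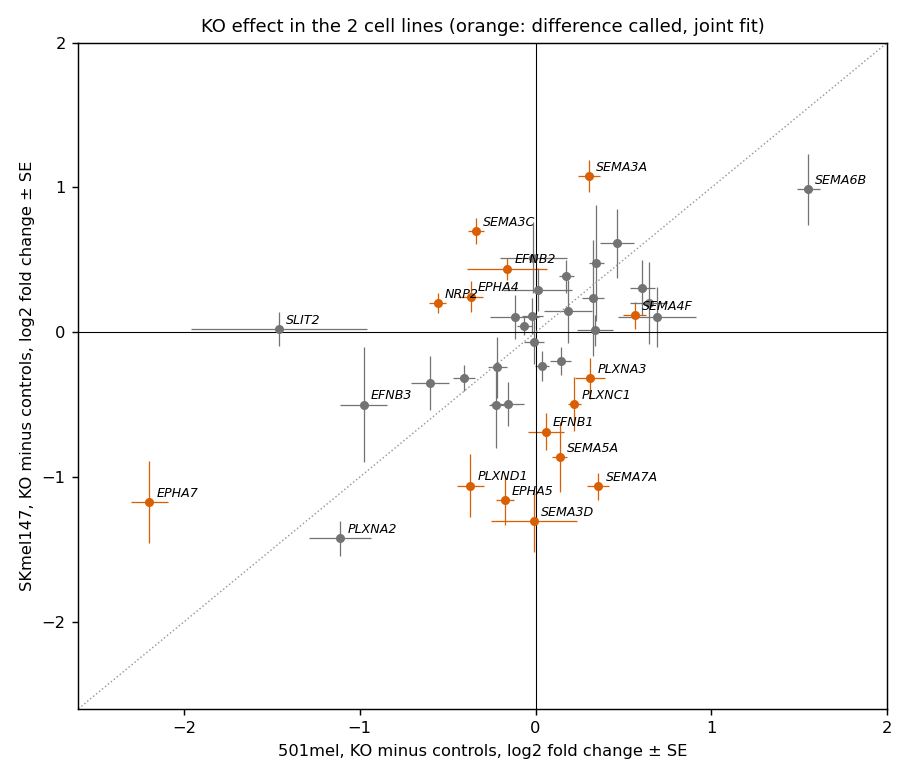
Log2 fold change of KO minus controls in SKmel147 (vertical axis) and 501mel (horizontal axis) for the 41 genes tested in both cell lines, with bars of 1 SE; orange marks genes whose difference between cell lines was called. SEMA7A is lower in SKmel147 and higher in 501mel, where the rise is in KO5.2, SEMA3C the reverse, and PLXNA2 and EPHA7 are lower in both. For PLXNA2 in 501mel the control line NTC lies with the KO lines and only Par stands apart.

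Genes that act with these ligands and receptors were counted from lists made from textbook knowledge, with earlier results of these data known. Their counts stand beside the shares over all genes, 8.07% higher and 9.60% lower in SKmel147 and 24.7% higher and 26.5% lower in 501mel. Of 20 co-receptors and partners tested in SKmel147, 3 rose and 4 fell; NTNG1, a membrane-anchored netrin, rose by 1.17 ± 0.13 and FLRT3, an adhesion protein that binds UNC5 receptors, by 0.72 ± 0.10, while RGMB, a ligand of neogenin, fell by 0.45. In 501mel 16 were tested, 5 rose and 7 fell. There ITGA1, an integrin subunit, fell by 1.78 on the log2 scale. CSPG4, a proteoglycan of melanoma cells, rose by 1.30 ± 0.14, and NEO1, which encodes neogenin, rose by 0.40 ± 0.04. FLRT3 and ITGA1 were called higher in SKmel147 and lower in 501mel, and NEO1 the reverse. Taken singly in SKmel147, ITGA1 was called only in KO1.4, NEO1 in no KO line, and RGMB in KO1.4 and KO3.20 but not in KO1.5. Of the semaphorin and plexin effectors, 0 rose and 3 fell of 24 tested in SKmel147 (DPYSL2, MRAS and MICAL2), and 6 rose and 10 fell of 25 in 501mel. DPYSL2, the collapsin response mediator CRMP-2, fell by 0.55 over the SKmel147 KO lines and was called singly in KO1.4 and KO1.5 but not in KO3.20. RND3, a GTPase without hydrolysis activity, fell by 2.00 in 501mel, and FARP1 rose by 0.67 ± 0.05. MICAL2, which oxidises actin, fell by 0.24 over the SKmel147 KO lines and rose by 0.86 ± 0.05 over those of 501mel. Taken singly, MICAL2 was called lower only in KO3.20 and higher only in KO5.2, and it was called lower in NT than in Par. MRAS was called singly only in KO3.20. Of the Eph and ephrin effectors, 1 of 19 changed in SKmel147 (PDZRN3, -1.23 ± 0.15), where 17.7% of all genes changed. PDZRN3 was called singly in KO1.4 and KO1.5 but not in KO3.20. In 501mel 6 rose and 7 fell of 15, where 51.3% of all genes changed. Among these were SDCBP (0.55 ± 0.04), ADAM10 (0.31 ± 0.04), a protease that cleaves ephrins, and INPPL1 (-0.30 ± 0.04). INPPL1 was called lower in KO1.8 and not called in KO5.2.

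Of the effectors of SLITs, ROBOs and netrins, 6 rose and 4 fell of 24 tested in SKmel147, where 17.7% of all genes changed. In 501mel 6 rose and 6 fell of 23, a share near the 51.3% of all genes. TRIM9, a ubiquitin ligase that binds DCC, rose by 1.75 ± 0.16 in SKmel147, with 4.63 to 6.21 CPM in KO libraries, 2.31 and 2.70 CPM in NT, and 1.18 and 0.731 CPM in Par. PAK3 rose by 0.85 ± 0.08 and SRGAP1, a GTPase-activating protein downstream of ROBO, fell by 0.60 in SKmel147. EVL, an actin regulator of the Ena/VASP family, had 6.76 and 7.30 CPM in KO1.8, 0.210 and 0.1005 CPM in KO5.2 and 6.36 to 7.85 CPM in 501mel controls, so that its fold change of -2.74 rests on KO5.2. CAP2 (0.47 ± 0.05) and SOS1 (0.41 ± 0.04) rose over the 501mel KO lines, SOS1 in each line and CAP2 called in KO5.2 but not in KO1.8. Of the shared cytoskeletal genes, 4 rose and 1 fell of 19 tested in SKmel147 and 7 rose and 5 fell of 18 in 501mel, against the same shares. Among them NFATC2 (1.10 ± 0.13) and PAK6 (2.77 ± 0.43) rose and LIMK2 fell by 0.49 in SKmel147. LIMK2 was called singly in KO1.5 and KO3.20 but not in KO1.4. In 501mel SSH1 (0.77 ± 0.04), RHOB (0.92 ± 0.06) and PAK4 (0.33 ± 0.05) rose. The medians of the 5 lists were 0.14, -0.02, 0.06, 0.02 and 0.13 in SKmel147 and -0.17, -0.04, -0.14, -0.06 and 0.03 in 501mel, in the order given, where over all genes the median was -0.01 in both cell lines.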

How the data were processed

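The authors deposited raw read counts by gene symbol in a table for each cell line. STAR 2.6.0 and featureCounts are named, with the builds hg19 and GRCh37, per the submitters' processing notes. The annotation release and strand setting are not given in the sources, so reads of overlapping or antisense genes may be shared. All columns were mapped to samples by their names. The tests were run with edgeR 4.0.16 under R 4.3.3: TMM scaling and filterByExpr within each cell line, 1 coefficient per line, quasi-likelihood tests, and Benjamini-Hochberg adjustment over all genes tested, with calls at an adjusted p under 0.05. KO minus controls sets the average of KO lines against that of control lines, each line with equal weight. The comparison between cell lines used a joint fit of all 18 libraries. The script was tested on simulated counts first. Alternatives included DESeq2 1.42.0, limma 3.58.1 voom with the line as a random block, the line as the replicate, other filters, corrections and left-out libraries. Chromosome, GC content and length came from GENCODE 29, which matched 35386 of the 56629 symbols, 1363 of them by an older symbol; it is on another build, and no coordinate of it is printed.

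The genes and lists were chosen with earlier results of these data known. Genes are named with values when called with 1 sign in every KO line of a cell line, when among the 10 with the smallest p for KO minus controls in a cell line, the 5 with the smallest p for each comparison between cell lines, or the 3 with the smallest p between KO lines or between control lines; up to 3 genes are named per pathway list and cell line. Further genes with values, and the 5 promoters, were chosen after their values were seen.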

Additional observations from a re-analysis of the deposited data

Results flagged for a closer look

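A single library stood far from the others of its group in 3 of 116 sets of library values examined, and chance gives about 1 in 20. SEMA4G, a membrane-bound semaphorin, had 4.75 CPM in SKmel147 KO3.20 R2, where the other KO libraries had 2.34 to 2.996 CPM. It also had 3.28 CPM in SKmel147 NT R2, where the other control libraries had 2.10 to 2.30 CPM. EFNB3, a B ephrin, had 6.54 CPM in 501mel NTC R1, where the other control libraries had 4.85 to 5.05 CPM.

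The KO effect differed between the cell lines for 15 of 59 genes tested, where 21.3% of all genes were called. The test was the interaction contrast of the joint edgeR fit, with adjusted p from 3.81e-07 to 0.0419. With the line as the replicate no gene passed. The call was lost for NRP2 with Par as the only control, and for SEMA3A with the transduced lines as the only controls. On the log2 scale, SKmel147 minus 501mel, the KO effect was higher in SKmel147 for SEMA3C (1.05), EPHA7 (1.03), SEMA3A (0.78), NRP2 (0.77), EPHA4 (0.62) and EFNB2 (0.61). It was lower in SKmel147 for SEMA7A (-1.41), SEMA3D (-1.29), SEMA5A (-1.01), EPHA5 (-0.98), EFNB1 (-0.73), PLXNC1 (-0.72), PLXND1 (-0.67), PLXNA3 (-0.62) and SEMA4F (-0.44). SEMA5A, PLXND1 and EPHA7 had SKmel147 libraries under 1 CPM, SEMA3D had 501mel libraries under 1 CPM, and EFNB2 lay near 1 CPM in 501mel. For EFNB1 and SEMA3D the averages of KO1.8 and KO5.2 lay on opposite sides of the 501mel control lines. What sets the cell lines apart in these genes was not tested.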

How the results depend on the processing

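None of the gene and comparison pairs fixed by the rule for named genes reversed direction under the alternatives run; other genes named with a test, such as SEMA6B in SKmel147, SEMA7A in the 501mel KO comparison and the pathway genes, were not rerun singly. Taking the line as the replicate left 0 genes in the KO comparison of SKmel147 (20 in the main analysis), in that of 501mel (35) and in the difference between cell lines (15), and voom with the line as a random block left 5, 6 and 2; the cause was not tested. The genes that passed voom were PLXNA2, SEMA7A, SEMA3A, ROBO4 and SEMA3D in SKmel147, SEMA6B, EPHA7, SEMA3F, NRP2, SLIT1 and SEMA4F in 501mel, and SEMA7A and SEMA3C for the difference. A limit of at least 2-fold left 9 genes in the SKmel147 KO comparison, 8 in 501mel, 5 for the difference, 7 for KO5.2 minus KO1.8, 3 for NT minus Par, 1 for NTC minus Par, 3 for every KO line of SKmel147 and 4 for every KO line of 501mel. DESeq2 gave 5 for NTC minus Par and 10 among the SKmel147 KO lines. That last count was 12 without the low-count filter, 14 with GC and length correction and 15 with that correction and the replicate block. Every KO line of SKmel147 gave 10 with the GC and length correction, with or without the block. Without line KO1.5 the SKmel147 comparison gave 13. Every KO line of 501mel gave 12 against Par alone, and 34 without KO1.8 and 31 without KO5.2, where 1 line is left to agree. Leaving out 1 library gave 14 to 19 genes for SKmel147 KO, 28 to 34 for 501mel KO, 11 to 17 for the difference, 53 to 56 for control lines between cell lines, 22 to 30 for KO5.2 minus KO1.8, 3 to 14 for NT minus Par, 3 to 13 for NTC minus Par, 2 to 9 among SKmel147 KO lines, 1 to 7 for every KO line of SKmel147 and 14 to 21 for every KO line of 501mel. R1 and R2 share only a number: the correlation of same-numbered deviations was -0.481 to 0.563 over 10 pairs of SKmel147 lines and -0.00538 to 0.201 over 6 pairs of 501mel lines. With the replicate block, 20 genes were called for SKmel147 KO, 36 for 501mel KO, 14 for the difference, 30 for KO5.2 minus KO1.8, 10 for NT minus Par and 14 for NTC minus Par. Genes under about 1 CPM rest on few reads.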
